A study of Homo sapiens with 6 samples.

Results

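The heat shock genes described here are 10 genes of the cytosolic HSP90 and HSP70 system, out of 20289 genes in the deposited expression table. They were taken by gene symbol and matched to their Ensembl identifiers, and all 10 were found. They are the HSP90 genes HSP90AA1 and HSP90AB1, the HSP70 genes HSPA1A, HSPA1B and HSPA8, the HSP110 genes HSPA4, HSPA4L and HSPH1, the HSP40 gene DNAJB1, and HSF1. RNA sequencing was carried out on the human colorectal cancer line RKO, in 3 libraries of cells with a short hairpin RNA against TRMT6 (shTRMT6, labelled as a TRMT6 knockdown) and 3 libraries of cells with a control hairpin (shControl, labelled WT). TRMT6 is the non-catalytic subunit of a tRNA methyltransferase. The number of hairpins, their sequences and whether the cells were clones were not stated in the labels, and no label names a heat treatment in either group.

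HSP70 binds exposed stretches of unfolded proteins in a cycle driven by ATP. J-domain proteins such as DNAJB1 bring the client and start ATP hydrolysis, and the HSP110 proteins act as exchange factors that release ADP and reset the cycle. HSP90 acts later, on nearly folded clients such as kinases and steroid hormone receptors. HSF1 is the transcription factor that raises the inducible genes during heat and other protein-damaging stress, through heat shock elements built of alternating GAA and TTC units. HSP90AB1 and HSPA8 are the constitutive copies, while HSP90AA1, HSPA1A, HSPA1B, HSPH1 and DNAJB1 are known as heat-inducible.

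The genes did not move as 1 block. HSP90AA1, HSPA8, HSPA4 and HSPA4L were higher in shTRMT6 cells, by 1.42-fold to 2.50-fold, DNAJB1 was 1.24-fold lower, and HSP90AB1, HSPA1A, HSPA1B, HSPH1 and HSF1 did not pass the test. Of the 5 genes classed here as heat-inducible, 1 was higher, 1 was lower and 3 did not pass. Of all 10592 genes tested, 35.4% passed the same threshold, 19.3% higher and 16.1% lower, so 5 called genes among 10 stand beside a high background. The median log2 fold change was 0.11 over the 10 genes and 0.02 over all genes tested. Values are FPKM, fragments scaled to transcript length and library size, and fold changes are given as ratios of mean FPKM, while log2 fold changes are on the log2(FPKM + 1) scale. A gene was called when its limma adjusted p was under 0.05, with adjustment over all genes tested.

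The targeted gene TRMT6 itself had 1.58, 1.73 and 1.09 FPKM in shTRMT6 libraries and 14.43, 17.96 and 16.85 FPKM in shControl libraries (log2 fold change -2.82, SE 0.13, limma adjusted p = 4.33e-08). Rough estimates of depth, from the steps between low FPKM values, were 17.9 to 20.0 M fragments (mega) in shTRMT6 libraries and 21.2 to 28.6 M in shControl libraries. Of the epithelial markers, KRT18 read 179.06 to 193.27 FPKM in shTRMT6 libraries and 104.97 to 135.58 in shControl libraries. KRT8 read 8.4 to 11.09 FPKM over the 6 libraries, and its groups overlapped. EPCAM read 3.01 to 7.4 FPKM and the intestinal factor CDX2 4.53 to 6.39 FPKM. The epithelial marker CDH1 and the intestinal markers VIL1 and CDX1 were listed at 0 in all 6 libraries. The fibroblast, endothelial and leukocyte markers COL1A1, COL3A1, DCN, PECAM1, VWF, PTPRC and CD3E were at 0.65 FPKM or less, while VIM read 6.58 to 7.79 FPKM and the lysosomal gene CD68 676.97 to 996.37 FPKM. Libraries also differed in how their values followed transcript GC content: per 10 GC points, log2 values moved by -0.07, -0.16 and -0.03 in shTRMT6 replicates 1, 2 and 3 and by 0.23, -0.0047 and 0.04 in shControl replicates 1, 2 and 3. The tested genes had a median GC content of 50.1%, and each fold change below was also computed after that trend was removed from every library (the GC correction).

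**Figure D1:**
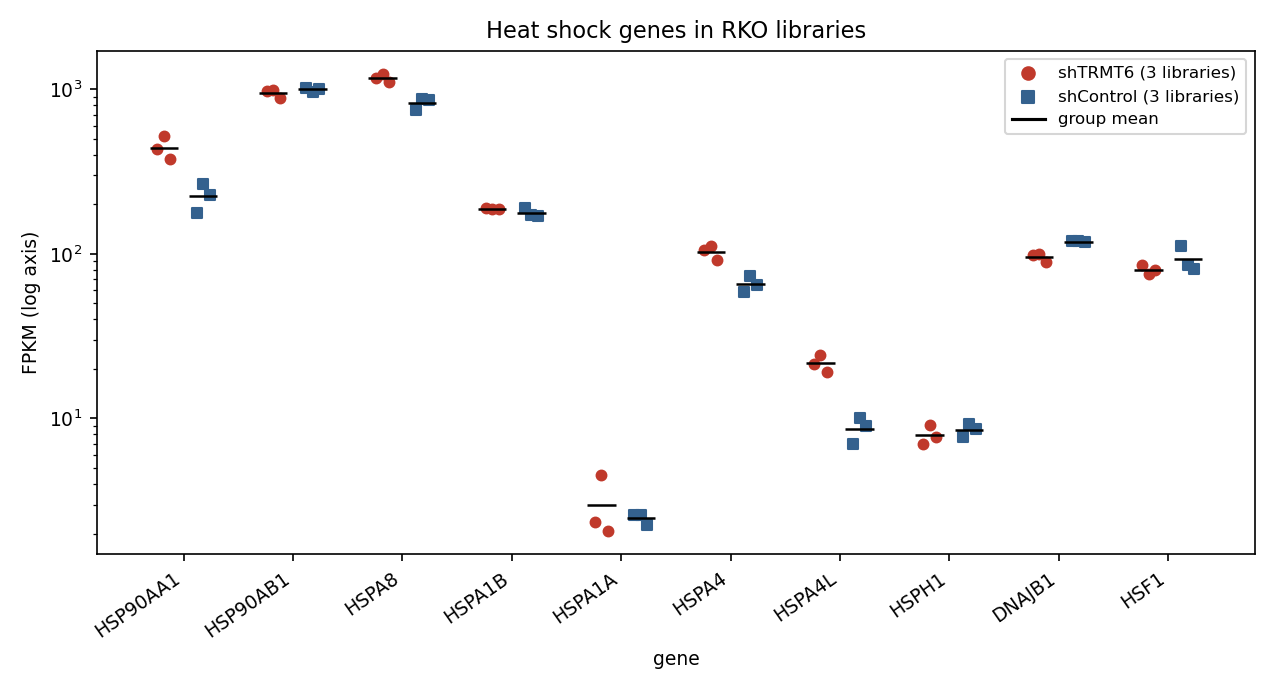
FPKM of each of the 10 heat shock genes in every library, on a log axis. Red circles are the 3 shTRMT6 libraries, blue squares the 3 shControl libraries and bars the group means. The circles lie above the squares with no overlap for HSP90AA1, HSPA8, HSPA4 and HSPA4L, and below them for DNAJB1.

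Heat shock elements could be read in 16 promoter windows of 300 bases (250 before to 50 after a RefSeq start, build GRCh38.p14) that belong to 9 of the 10 genes. The letters searched were a pair of units, GAANNTTC or TTCNNGAA, each of which reads the same on both strands, and 3 units in a row, GAANNTTCNNGAA or TTCNNGAANNTTC, on both strands. Neighbouring pairs may share a unit. A pair was present in 8 of the 16 windows (50.0%), belonging to 7 genes, against 13.5% of 35116 windows of all genes. All 3 units were present in 3 of the 16 windows, belonging to HSP90AA1, HSP90AB1 and HSPA8, against 0.49% of all windows. Matches to 3 units with up to 1 mismatch were also counted, and 6.24% of all windows held one. At the start nearest to the main annotated transcript, HSPA1A and HSPA1B had 1 such match each, and HSPA4L and DNAJB1 had 2 each. HSP90AA1 had 4 and HSPA8 had 2 there, while HSP90AB1, HSPA4 and HSPH1 had 0. The stretches are shown, 5′ to 3′ on the gene's own strand and with the units of each pair in capitals, because they set the genes that were called beside paralogs that were not.
HSP90AA1: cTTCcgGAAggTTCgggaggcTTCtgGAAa
HSP90AB1: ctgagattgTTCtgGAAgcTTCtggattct
HSPA8: gcgggccccTTCtgGAAggTTCtaagatag
HSPA1B: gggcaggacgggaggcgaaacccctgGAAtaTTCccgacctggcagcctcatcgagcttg
HSPA4L: tttccagatctTTCtcGAAcccgcagcttc
DNAJB1: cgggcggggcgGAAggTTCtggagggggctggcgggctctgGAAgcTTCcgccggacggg

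The HSP90AA1 stretch lies at chr14:102087104-102087133 on the minus strand, 89 to 60 bases before the start, and in GENCODE 29 falls in the 5′ untranslated exon of 1 of 4 coding transcripts. The HSP90AB1 stretch lies at chr6:44247822-44247851 on the plus strand, before a start that is not the one nearest to the main annotated transcript, and is intronic there. The window at the nearest HSP90AB1 start had no pair. The HSPA8 stretch is at chr11:123062171-123062200 on the minus strand, 64 to 35 bases before the start, in an untranslated exon of 2 of 17 coding transcripts. That start lies 804 bases from the start of the main annotated transcript, against 856 bases for the HSP90AB1 start whose stretch is shown. The HSPA1B stretch (chr6:31827607-31827666, plus strand) lies upstream of its only coding transcript. The HSPA4L stretch (chr4:127782141-127782170, plus strand) holds a single pair, in the 5′ untranslated exon of 1 of 4 coding transcripts. The DNAJB1 stretch (chr19:14518426-14518485, minus strand) holds 2 separate pairs in an intron of its longer transcripts, 88 to 29 bases before the start. HSPA1A had a pair with the same letters as HSPA1B. The windows of HSPA4 and HSPH1 had none, which says only that these letters are not in those windows. A pair thus stood before genes that were higher (HSP90AA1, HSPA8, HSPA4L), lower (DNAJB1) and not called (HSPA1A, HSPA1B, HSP90AB1).

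HSP90AB1 was the more abundant HSP90 gene in both groups, and the inducible copy, HSP90AA1, was called higher in shTRMT6 cells. HSP90AA1 (ENSG00000080824, chromosome 14, bases 102080738 to 102139699, minus strand in GENCODE 29) had 430.75, 518.25 and 374.83 FPKM in shTRMT6 libraries, against 176.06, 266.97 and 226.59 FPKM in shControl libraries. Every shTRMT6 library was above every shControl library, with replicate 2 the highest in each group. The means were 441.3 ± 72.3 and 223.2 ± 45.5 FPKM (SD, n = 3 each), a 1.98-fold difference (log2 fold change 0.99, SE 0.15, 95% interval 0.67 to 1.30, limma adjusted p = 0.000369). An exact two-sided permutation test gave p = 0.1, which is the lowest value 3 libraries against 3 can give, as it did for each of the other 4 called genes. HSP90AA1 has a GC content of 44.3%, and with the GC correction its log2 fold change was 0.85 (adjusted p = 0.000521). shControl replicate 1, the lowest library for this gene, also had the steepest GC trend, and without it the log2 fold change was 0.83 (adjusted p = 0.00169). The part of the GC trend in the value was not tested beyond that correction. Of 75-base windows of its coding transcripts, 8.11% also occur in other transcripts, chiefly of a processed pseudogene, HSP90AA2P, and of the neighbouring gene WDR20.

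HSP90AB1 (ENSG00000096384, chromosome 6, bases 44246166 to 44253888, plus strand) had 979.7, 982.63 and 877.37 FPKM in shTRMT6 libraries, against 1018.81, 960.3 and 1008.16 FPKM in shControl libraries. The groups overlapped. HSP90AB1 was not called (log2 fold change -0.07, 95% interval -0.27 to 0.12, SE 0.09, limma adjusted p = 0.544). Within a library, HSP90AA1 stood at 0.440, 0.527 and 0.427 of HSP90AB1 in shTRMT6 cells and at 0.173, 0.278 and 0.225 in shControl cells. That ratio, which does not depend on how libraries are scaled, was 2.09-fold higher in shTRMT6 cells (log2 difference 1.07, SE 0.22). It did not overlap between groups, and the exact permutation p was 0.1 (0.117 after Benjamini-Hochberg adjustment over the 7 ratios computed), the smallest that unpaired libraries allow. With libraries paired by replicate number, an exact sign-flip test gave p = 0.25, the smallest that 3 pairs allow, and likewise for the other 5 ratios without overlap below.

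The HSP70 genes showed the opposite order, with the constitutive gene higher and the inducible pair not called. HSPA8 (ENSG00000109971, chromosome 11, bases 123057489 to 123063230, minus strand) encodes HSC70, the constitutive HSP70 that also uncoats clathrin vesicles. It had 1165.73, 1241.01 and 1102.42 FPKM in shTRMT6 libraries and 744.63, 867.27 and 856.83 FPKM in shControl libraries, with no overlap. Its mean was 1170 ± 69.4 FPKM in shTRMT6 cells and 822.9 ± 68.0 FPKM in shControl cells (SD, n = 3 each), 1.42-fold higher (log2 fold change 0.51, SE 0.10, 95% interval 0.30 to 0.71, limma adjusted p = 0.00157). With the GC correction the log2 fold change was 0.43 (adjusted p = 0.00139). HSPA8 was the most abundant of the 10 genes in shTRMT6 cells, above HSP90AB1, while in shControl cells HSP90AB1 was above HSPA8.

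HSPA1A and HSPA1B encode nearly the same inducible HSP70 protein from neighbouring genes on chromosome 6 (ENSG00000204389, bases 31815464 to 31817946, and ENSG00000204388, bases 31827735 to 31830255, both on the plus strand). Of 75-base windows of HSPA1A and of HSPA1B, 69.3% and 73.2% also occur in other transcripts, so how fragments were divided between them in the authors' counting is uncertain. HSPA1B had 189.59, 187.78 and 187.27 FPKM in shTRMT6 libraries, against 189.73, 172.1 and 168.78 FPKM in shControl libraries. HSPA1A had 2.34, 4.53 and 2.06 FPKM in shTRMT6 libraries, against 2.61, 2.61 and 2.27 FPKM in shControl libraries. Both genes overlapped between groups, and for HSPA1A shTRMT6 replicate 2 stood above the other 5 libraries. Their log2 fold changes were 0.09 (SE 0.09, limma adjusted p = 0.442) for HSPA1B and 0.14 (SE 0.19, adjusted p = 0.604) for HSPA1A. The sign of HSPA1A rested on that library: without it the log2 fold change was -0.13 (adjusted p = 0.569). Summed before the test, the pair gave 0.09 (adjusted p = 0.43). HSPA1B has a GC content of 58.8%, well above the median of tested genes, and with the GC correction it passed the test (log2 fold change 0.23, adjusted p = 0.0186, or 0.00245 when the replicate number was also fitted as a block).

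Set against HSPA8 in the same library, HSPA1A and HSPA1B together stood at 0.165, 0.155 and 0.172 in shTRMT6 cells and at 0.258, 0.201 and 0.200 in shControl cells. HSPA1B alone gave nearly the same ratios. The summed ratio was 1.33-fold lower in shTRMT6 cells, without overlap (log2 difference -0.42, SE 0.13, exact permutation p = 0.1). With the GC correction the log2 difference was -0.20, less than the -0.42 without it. HSPA1A alone over HSPA8 was the 1 ratio of the 7 that overlapped between groups (log2 difference -0.34, SE 0.33, exact permutation p = 0.4). The inducible share of HSP90 transcripts and the inducible share of HSP70 transcripts therefore differed between the groups in opposite directions, neither of them past a test that could not give a p under 0.1.

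**Figure D2:**
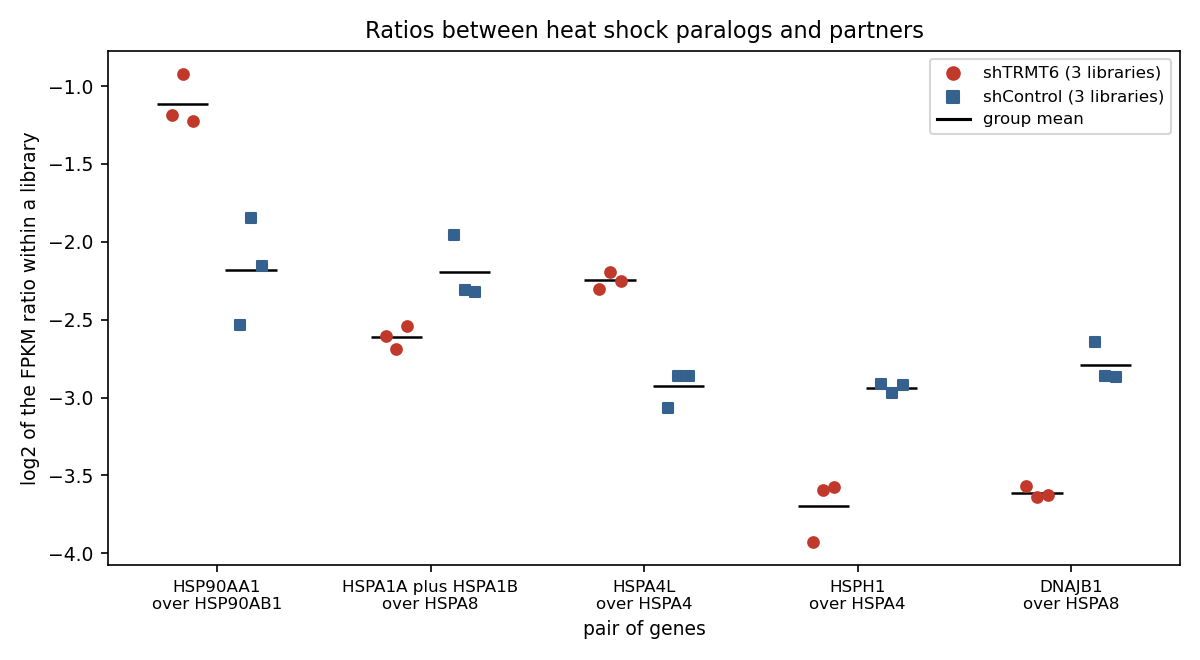
Log2 of the FPKM ratio of a gene to its paralog or partner within each library, on the vertical axis, for 5 of the 7 ratios computed; HSPA1B over HSPA8, close to the summed ratio, and HSPA1A over HSPA8, whose groups overlapped, are not drawn. Red circles are shTRMT6 libraries, blue squares shControl libraries and bars group means. HSP90AA1 over HSP90AB1 and HSPA4L over HSPA4 are higher in all 3 shTRMT6 libraries, and the other 3 ratios are lower in all 3.

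HSPA4 and HSPA4L, the HSP110 genes that are not classed here as heat-inducible, were both higher in shTRMT6 cells. HSPA4L (ENSG00000164070, chromosome 4, bases 127781821 to 127840733, plus strand), also called APG-1, had 21.49, 24.23 and 19.28 FPKM in shTRMT6 libraries and 7.0, 10.05 and 8.97 FPKM in shControl libraries. The lowest shTRMT6 library was above the highest shControl library. With means of 21.7 ± 2.48 FPKM in shTRMT6 cells and 8.67 ± 1.55 FPKM in shControl cells (SD, n = 3 each), it had the highest fold of the 10 genes, 2.50-fold (log2 fold change 1.24, SE 0.13, 95% interval 0.95 to 1.52, limma adjusted p = 4.95e-05). Its GC content of 40.6% is below the lower quartile of tested genes, 43.7%, and the GC correction gave 1.02 (adjusted p = 3.41e-05). An antisense transcript overlaps it and holds 4.14% of its windows. Without a stated strand setting, fragments of the antisense transcript cannot be told apart from its own.

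HSPA4 (ENSG00000170606, chromosome 5, bases 133051962 to 133106449, plus strand), also called APG-2, had 105.81, 110.79 and 91.74 FPKM in shTRMT6 libraries, against 58.55, 73.11 and 65.04 FPKM in shControl libraries. The groups did not overlap, and replicate 2 was again the highest of each group. It was 1.57-fold higher in shTRMT6 cells (102.8 ± 9.88 FPKM against 65.6 ± 7.29 FPKM, SD, n = 3 each), with a log2 fold change of 0.64 (SE 0.11, limma adjusted p = 0.000814) and 0.46 with the GC correction (adjusted p = 0.00112). HSPA4L stood at 0.203, 0.219 and 0.210 of HSPA4 in shTRMT6 libraries and at 0.120, 0.137 and 0.138 in shControl libraries, a ratio 1.60-fold higher in shTRMT6 cells (log2 difference 0.68, SE 0.07, exact permutation p = 0.1).

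HSPH1 (ENSG00000120694, chromosome 13, bases 31134974 to 31162388, minus strand) encodes HSP105, the HSP110 protein classed here as heat-inducible. It had 6.97, 9.18 and 7.69 FPKM in shTRMT6 libraries and 7.77, 9.31 and 8.6 FPKM in shControl libraries, and the groups overlapped. Its log2 fold change was -0.10 (SE 0.12, 95% interval -0.37 to 0.17, limma adjusted p = 0.557). HSPH1 has the lowest GC content of the 10 genes, 40.0%, and with the GC correction it passed the test as lower (log2 fold change -0.33, adjusted p = 0.0156, or 0.0133 when the block was added). HSPH1 and HSPA4L were at like levels in shControl cells, with overlapping libraries, and apart in shTRMT6 cells. Set against HSPA4, HSPH1 stood at 0.0659, 0.0829 and 0.0838 in shTRMT6 libraries and at 0.133, 0.127 and 0.132 in shControl libraries. That ratio was 1.70-fold lower in shTRMT6 cells (log2 difference -0.76, SE 0.11, exact permutation p = 0.1), and -0.79 with the GC correction.

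DNAJB1 was the only one of the 10 genes called lower, and the call was narrow. DNAJB1 (ENSG00000132002, chromosome 19, bases 14514770 to 14529770, minus strand) is the main inducible HSP40, a partner of HSPA1A, HSPA1B and HSPA8. It had 98.24, 99.78 and 89.15 FPKM in shTRMT6 libraries, against 119.04, 119.18 and 117.39 FPKM in shControl libraries. The shControl libraries lay within a narrow range, and all 3 shTRMT6 libraries were below it. The mean was 95.7 ± 5.74 FPKM in shTRMT6 cells and 118.5 ± 0.996 FPKM in shControl cells (SD, n = 3 each), and the log2 fold change was -0.31 (SE 0.09, 95% interval -0.50 to -0.12, limma adjusted p = 0.0171). The call ended without shTRMT6 replicate 1 (-0.33, adjusted p = 0.0549), without shControl replicate 2 (-0.30, adjusted p = 0.0575) and with the GC correction (-0.20, adjusted p = 0.0761, but 0.021 when the block was added). DNAJB1 shares 4.41% of its windows with other transcripts, mainly of the neighbouring gene TECR. Relative to HSPA8 in the same library, DNAJB1 stood at 0.0843, 0.0804 and 0.0809 in shTRMT6 cells and at 0.160, 0.137 and 0.137 in shControl cells, 1.76-fold lower (log2 difference -0.82, SE 0.08, exact permutation p = 0.1).

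HSF1 (ENSG00000185122, chromosome 8, bases 144291591 to 144314722, plus strand) had 85.28, 75.3 and 79.97 FPKM in shTRMT6 libraries and 111.09, 85.29 and 80.96 FPKM in shControl libraries. The lowest shControl library lay below the highest shTRMT6 library, and shControl replicate 1 stood above all others. The log2 fold change was -0.19 (SE 0.12, 95% interval -0.44 to 0.06, limma adjusted p = 0.222). HSF1 has the highest GC content of the 10 genes, 63.9%, and with the GC correction its log2 fold change was -0.01 (adjusted p = 0.894). HSF1 is controlled mainly through its protein, which RNA levels do not show.

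**Figure D3:**
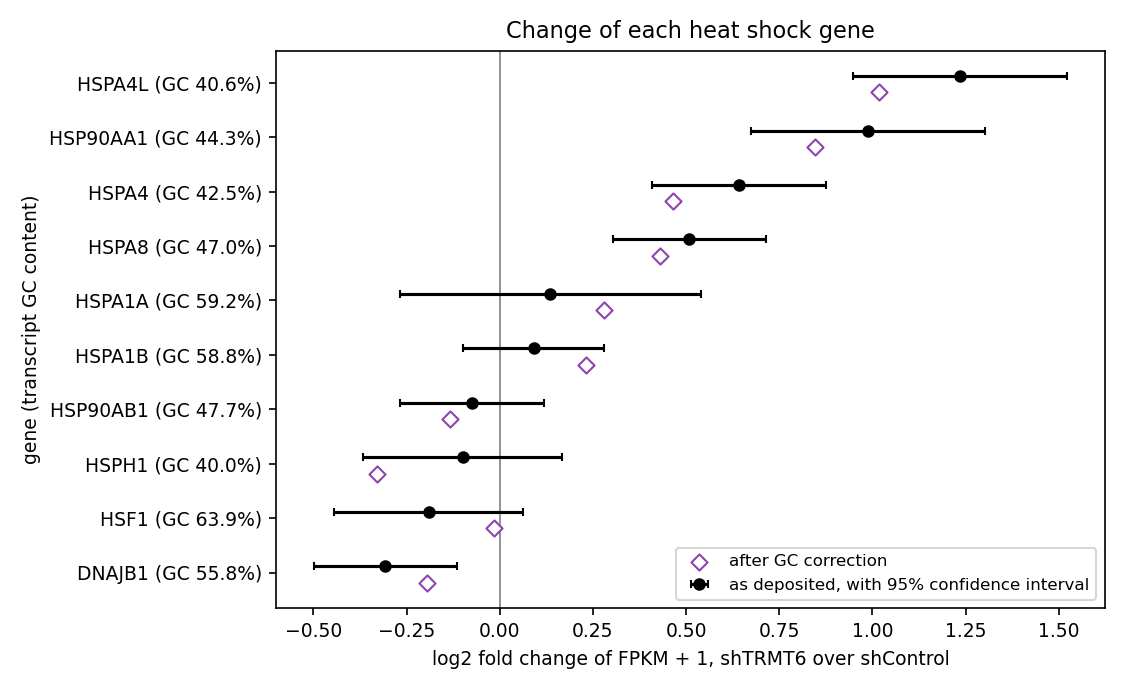
Log2 fold change of FPKM + 1, shTRMT6 over shControl, for each of the 10 genes, with its transcript GC content in the label. Black points with bars are the values as deposited with their 95% confidence intervals, and open diamonds the values after the GC correction. Intervals of HSPA4L, HSP90AA1, HSPA4 and HSPA8 lie above 0 and that of DNAJB1 below it, and the correction lowers the genes of low GC content and raises those of high GC content.

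The order of levels differed between the groups in several places. FPKM is scaled to transcript length, but libraries also differed in their GC trends, and the authors' annotation is not given. Comparison of levels between genes is therefore approximate. The places of HSPA1A and HSPA1B rest on how their shared fragments were divided, which is uncertain. In shTRMT6 cells the order ran HSPA8, HSP90AB1, HSP90AA1, HSPA1B, HSPA4, DNAJB1, HSF1, HSPA4L, HSPH1 and HSPA1A from high to low. Of neighbours in that order only HSPA4 and DNAJB1 overlapped. In shControl cells it ran HSP90AB1, HSPA8, HSP90AA1, HSPA1B, DNAJB1, HSF1, HSPA4, HSPA4L, HSPH1 and HSPA1A, and HSP90AA1 overlapped HSPA1B while HSPA4L overlapped HSPH1. HSPA4 thus stood above DNAJB1 and HSF1 on average in shTRMT6 cells and below both in shControl cells. Together the 10 genes made up 0.491%, 0.520% and 0.456% of all FPKM in shTRMT6 libraries and 0.399%, 0.422% and 0.422% in shControl libraries, which did not overlap (exact permutation p = 0.1). That sum is weighted towards the most abundant genes, of which HSPA8 and HSP90AA1 were called higher and HSP90AB1 was not called. It does not describe the 10 genes as a set. The groups did not overlap for 5 of the 10 genes, 4 higher and 1 lower, beside 48.3% of all genes tested (26.2% higher and 22.1% lower).

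The genes with the most similar profile were sought for HSPA4L and HSP90AA1, the genes with the largest changes, by the root mean square difference of log2(FPKM + 1) deviations from the gene mean over the 6 libraries. For HSPA4L they were MDM2 (0.0636), the ubiquitin ligase that degrades p53, G3BP2 (0.0648), a stress granule protein, and ANXA1 (0.0705), an annexin. For HSP90AA1 they were XPA (0.0572), a nucleotide excision repair protein, STX12 (0.0692), an endosomal syntaxin, and ZNF616 (0.0787), a zinc finger gene. MDM2 had 58.38, 62.91 and 54.6 FPKM in shTRMT6 libraries and 18.25, 27.36 and 23.38 FPKM in shControl libraries, with replicate 2 highest and shControl replicate 1 lowest, as for HSPA4L. XPA had 9.11, 10.57 and 8.28 FPKM in shTRMT6 libraries and 3.41, 5.64 and 4.52 FPKM in shControl libraries, in the same order of libraries as HSP90AA1. These likenesses describe 6 libraries and include the difference between the groups. They were computed without the GC correction. The genes named as most similar had GC contents from 41.2% (MDM2) to 46.9% (ZNF616), below the median of tested genes, 50.1%. The part of the library GC trends in these likenesses was not tested.

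The wider chaperone system was followed in 9 lists of other genes, given by counts and medians, and some genes are in more than 1 list. Of 112 distinct genes tested, 35 (31.2%) were higher and 8 (7.14%) lower in shTRMT6 cells, beside 19.3% and 16.1% of all genes tested. Their median log2 fold change was 0.13. The fit with the replicate block called 16 lower and 42 higher, and median-of-ratios scaling 13 lower and 32 higher. Among J-domain proteins of classes A and B, the closest kin of DNAJB1, 6 of 12 tested (50.0%) were higher, beside 19.3% of all genes (median 0.32). They included DNAJB4 (5.69, 6.77 and 3.21 FPKM in shTRMT6 libraries against 1.73, 3.05 and 1.95 FPKM in shControl libraries; log2 fold change 0.92, SE 0.21, limma adjusted p = 0.0047), which heat induces as well; its call ended with no filter on low values (adjusted p = 0.0514). DNAJB5 had a log2 fold change of 0.59 (adjusted p = 0.0238), with overlapping groups. That call ended without shTRMT6 replicate 3 (adjusted p = 0.103), without shControl replicate 2 (0.0595) or 3 (0.0718), with no filter (0.115) and with quantile normalization (0.0817). DNAJA2, a class A co-chaperone of HSPA8, was 1.47-fold higher (log2 fold change 0.54, adjusted p = 0.00164), or 0.33 with the GC correction (adjusted p = 0.00878). The sign of DNAJB1 thus differed from that of the called genes of its class. With the GC correction the median of the class A and B list was 0.30.

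Of 28 class C J-domain proteins tested, 6 (21.4%) were higher and 1 (3.57%) lower, beside 19.3% and 16.1% of all genes. The list median was 0.14, and 0.03 with the GC correction. The share of higher genes is near the background. The lower one, named after its value was seen, was DNAJC5 (log2 fold change -0.45), a synaptic vesicle chaperone. DNAJC12, a co-chaperone of aromatic amino acid hydroxylases, was 1.79-fold higher (log2 fold change 0.79, SE 0.12, limma adjusted p = 0.000528), the ribosome-bound DNAJC2 had 0.70 (adjusted p = 0.00371), and DNAJC3, an inhibitor of the stress kinase PKR, had 0.58 (adjusted p = 0.0114). The DNAJC3 value was 0.37 without shControl replicate 1 and 0.36 with the GC correction, and its call ended with no filter (adjusted p = 0.0693). Of 6 other HSP70 and HSP110 genes tested, 1 was higher and 1 lower, 16.7% each and near the background. Their median was 0.10, and -0.01 with the GC correction. HSPA14, which works with DNAJC2 at the ribosome, had 33.7, 36.4 and 30.74 FPKM in shTRMT6 libraries and 15.95, 21.02 and 17.88 FPKM in shControl libraries (log2 fold change 0.85, SE 0.12, adjusted p = 0.00024). HYOU1, the HSP110 of the endoplasmic reticulum, had -0.44 (adjusted p = 0.0137), a call that ended without shTRMT6 replicate 1 (adjusted p = 0.0711), without shTRMT6 replicate 2 (0.0599), with no filter (0.0611) and with the GC correction (0.0511). The 2 other HSP90 genes tested did not pass: mitochondrial TRAP1 had -0.12 (adjusted p = 0.366) and HSP90B1 of the endoplasmic reticulum, named after its value was seen, had 0.35 (adjusted p = 0.0799). HSP90B1 passed with the replicate block (adjusted p = 0.000593), without shControl replicate 2 (0.0306) or 3 (0.0271) and with block and GC correction together (0.19, adjusted p = 0.0246), and read 0.14 without shControl replicate 1 (adjusted p = 0.248).

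Of 10 HSP70 nucleotide exchange factors other than HSP110, 3 were higher, beside a share of 19.3% of all genes. The list median was 0.11, and 0.06 with the GC correction. GRPEL2 and GRPEL1, the exchange factors of mitochondrial HSP70, had log2 fold changes of 0.63 (limma adjusted p = 0.000849) and 0.40 (adjusted p = 0.00906), and BAG2 had 0.39 (adjusted p = 0.0191). The GRPEL1 call ended without shTRMT6 replicate 1 (adjusted p = 0.0503) or 2 (0.0544). The BAG2 call ended with the GC correction (0.10, adjusted p = 0.394), and without shTRMT6 replicate 1 (adjusted p = 0.0729), shTRMT6 replicate 2 (0.0744) or shControl replicate 3 (0.0694). The co-chaperones of HSP90 and HSP70 were split, 7 (29.2%) higher and 4 (16.7%) lower of 24 tested, beside 19.3% and 16.1% of all genes (median -0.02, and 0.05 with the GC correction). ST13, the HSP70-interacting protein HIP, was 1.51-fold higher (log2 fold change 0.58, adjusted p = 0.00105), and CDC37L1, a relative of the kinase co-chaperone CDC37, had 0.83 (adjusted p = 0.001). NUDCD2, an HSP90 cofactor, had -0.63 (adjusted p = 0.0336), and its call ended without shTRMT6 replicate 1 (adjusted p = 0.0721) or 3 (0.154) without shControl replicate 2 (0.0841) or 3 (0.0673) and with no filter (0.151). The other 3 lower genes, named after their values were seen, were CACYBP, TOMM34 (-0.57) and STUB1 (-0.31), the ubiquitin ligase CHIP that marks HSP70 and HSP90 clients. CACYBP had 133.51, 128.04 and 74.07 FPKM in shTRMT6 libraries and 154.02, 149.58 and 153.73 FPKM in shControl libraries (log2 fold change -0.49, adjusted p = 0.0392). shTRMT6 replicate 3 was far below the others, and without it CACYBP was not called (-0.22, adjusted p = 0.0721), nor was it without shControl replicate 1 (0.096) or 3 (0.0519), with no filter (0.159), with quantile normalization (0.0661) or with no variance trend (0.0578). The STUB1 call (adjusted p = 0.0272) ended with the GC correction (-0.14, adjusted p = 0.143), with no filter (0.0556) and without any 1 of 5 libraries (adjusted p = 0.0518 to 0.11).

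Of the small heat shock proteins 1 of 9 in the table passed the filter on low values, HSPB1, the HSP27 gene that heat induces. It had 613.38, 544.37 and 554.58 FPKM in shTRMT6 libraries and 410.43, 315.06 and 295.37 FPKM in shControl libraries, without overlap (1.68-fold, log2 fold change 0.76, SE 0.12, limma adjusted p = 0.000497). Its GC content is 62.2%, and the GC correction gave 0.92 (adjusted p = 4.11e-05). Among 29 targets of HSF1 outside the 10 genes that were tested, 12 (41.4%) were higher and 1 (3.45%) lower, beside 19.3% and 16.1% of all genes (median 0.22). This list overlaps those above. HSPB1, DNAJA1, DNAJB4, DNAJB6 and AHSA1 among its higher genes, and its lower gene, were already counted there. The lower one was CACYBP, whose call rested on shTRMT6 replicate 3 as given above. HSPD1, the mitochondrial HSP60, was 1.78-fold higher (507.6 ± 52.5 FPKM in shTRMT6 cells against 285.4 ± 30.2 FPKM in shControl cells, SD, n = 3 each; log2 fold change 0.83, adjusted p = 0.000145), and RGS2, a regulator of G-protein signalling, had 0.95 (adjusted p = 0.000666). Calls in this list were therefore mostly on the higher side. With the GC correction 12 were higher and 2 lower, and the list median was 0.14. Of the genes classed here as heat-inducible among the 10, HSP90AA1 was called higher and DNAJB1 lower. The lower calls of DNAJB1 and CACYBP each ended under some of the alternatives.

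Among 12 other heat shock factors and regulators of HSF1 tested, 4 (33.3%) were higher and 2 (16.7%) lower, beside 19.3% and 16.1% of all genes (median -0.03). With the GC correction the balance turned, to 2 higher and 3 lower (median -0.09). PLK1, a mitotic kinase that also phosphorylates HSF1, had 66.79, 63.01 and 55.52 FPKM in shTRMT6 libraries and 117.7, 86.88 and 93.35 FPKM in shControl libraries (log2 fold change -0.67, SE 0.12, limma adjusted p = 0.00112). FBXW7, the ubiquitin ligase subunit that targets HSF1 among many proteins, had 0.51 (adjusted p = 0.00607). HSF2, a partner of HSF1, had 0.52 (adjusted p = 0.0191), and its call ended with the GC correction (0.31, adjusted p = 0.0834), with no filter (0.0877), without shTRMT6 replicate 1 (0.101) and without shControl replicate 1 (0.0663). The remaining called genes, named after their values were seen, were HSBP1L1 (0.49) and SIRT1 (0.35), a deacetylase of HSF1, on the higher side and MTOR (-0.51) on the lower. The SIRT1 call (adjusted p = 0.0429) ended with the GC correction (0.06, adjusted p = 0.652), with no filter (0.0893), with quantile normalization (0.0519) and without shTRMT6 replicate 1 (0.16) or 2 (0.136) or shControl replicate 1 (0.0892) or 3 (0.0858).

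**Figure D4:**
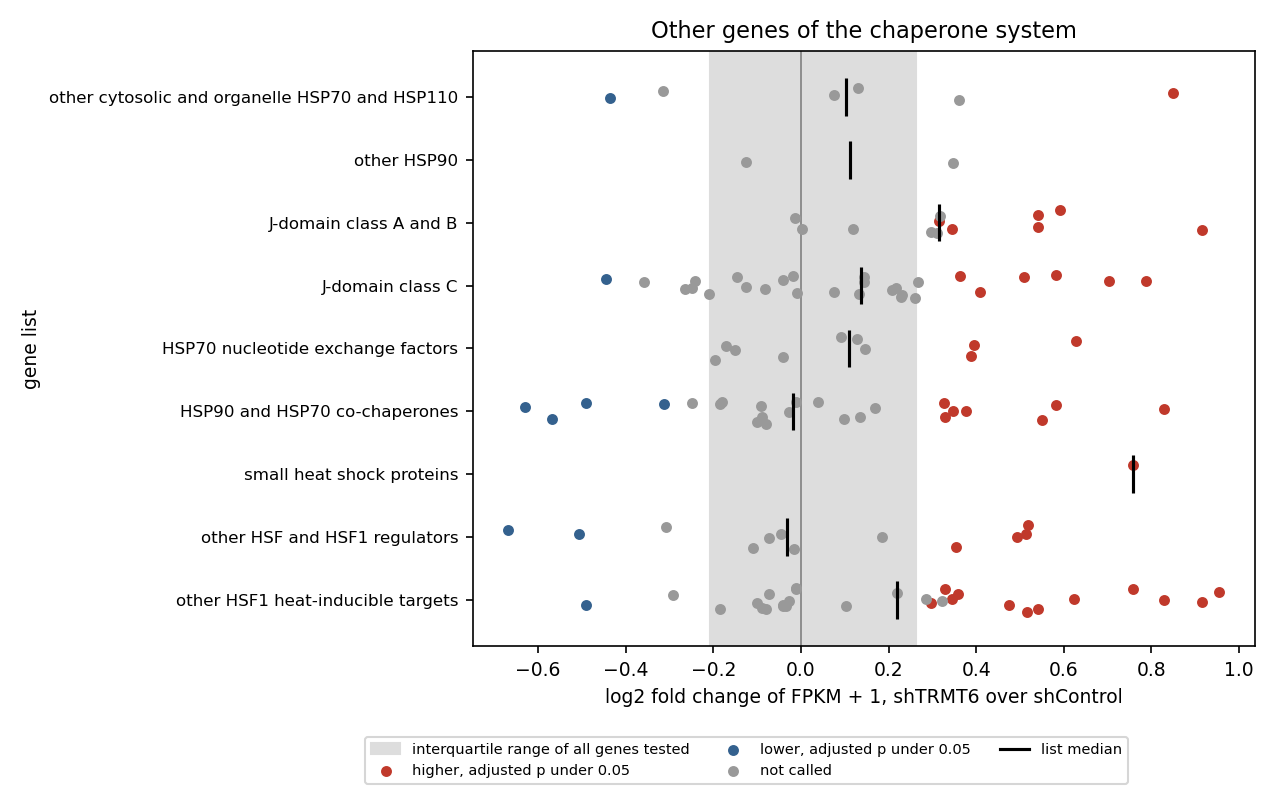
Log2 fold change of FPKM + 1, shTRMT6 over shControl, of every tested gene in the 9 lists of other chaperone system genes. There is 1 point for each gene in each list, so a gene in more than 1 list appears more than once. Red points were called higher, blue lower and grey not called, vertical bars are list medians, and the grey band spans the quartiles of all genes tested, -0.21 to 0.26. Class A and B J-domain proteins have the median farthest to the right among lists with more than 1 gene tested, 0.32.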

How the data were processed

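RNA sequencing of RKO cells was analysed from 1 deposited table with an FPKM value per gene and library, as the authors made it, per the file headers. Sample titles gave the group and the replicate number; column names use abbreviations of the groups, and a column was assigned to the library with that group and number. The submitters' processing notes list RSEM, HISAT2, StringTie 1.3.1, Bowtie2 2.2.8 and fastp 0.18.0 but not what each did; the genome build, annotation and strand setting are not given in these sources. Since FPKM are normalized values, a count model was not fitted, and the depth is known only as a rough estimate. Nothing states that replicates were separate cultures, so p-values cover only variation among these libraries, and it may be technical. In a whole culture, fewer cells that express a gene and less RNA per cell cannot be told apart.

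The test covered 10592 genes whose mean over the libraries reached 1 FPKM. It was a two-sided limma fit (limma 3.58.1 in R 4.3.3) of log2(FPKM + 1) whose variance prior followed a trend, with Benjamini-Hochberg adjustment over these genes and a threshold of 0.05. On this scale fold changes of genes with low FPKM are understated. Ratios between paralogs were taken within each library and compared by an exact two-sided permutation test (SciPy 1.17.1). Coordinates, GC content (median over coding transcripts) and shared 75-base windows came from GENCODE 29, promoter windows from RefSeq on GRCh38.p14. The 10 genes, the 9 lists and the tests were chosen with earlier results of these data known. Besides the 10 genes and TRMT6, the text names from each list up to 3 called genes with the largest absolute log2 fold change, or the most abundant gene where none was called, and for HSPA4L and HSP90AA1 the 3 genes of most similar profile.

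Libraries of the same replicate number deviated together from their group means (correlations 0.206, 0.364 and 0.17 for replicates 1, 2 and 3, across genes), against -0.288 to 0.094 between different numbers. Deviations within a group offset one another, so these correlations are not independent. The numbers were taken to pair the libraries only in the replicate block and the sign-flip test. The main fit and the permutation tests left libraries unpaired, and no label explains the numbers. Alternatives were pseudocounts of 0.1 and 0.5, no filter, a mean of at least 5 FPKM, quantile and median-of-ratios scaling, other variance priors, the replicate block, the GC correction with and without that block, HSPA1A and HSPA1B summed, and each library left out in turn.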

Additional observations from a re-analysis of the deposited data

How the results depend on the processing

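Of 178 results for the 10 genes under the alternatives, 170 kept their direction and their side of the threshold, 3 lost the call (DNAJB1), 4 gained it (HSPA1B and HSPH1, with the GC correction) and 1 reversed. The reversal was HSPA1A without shTRMT6 replicate 2, at -0.13; with libraries left out in turn it ran from -0.13 to 0.30. HSP90AA1, HSPA8, HSPA4 and HSPA4L were called higher under every alternative run. With libraries left out in turn, 2396 to 3619 genes were called in all, 4 to 4 of the 10 genes higher, 0 to 1 lower (0 without shTRMT6 replicate 1 or shControl replicate 2), and 20 to 38 chaperone system genes higher and 5 to 8 lower, against 35 and 8 with all libraries. Of all genes tested, 2443 were called without shTRMT6 replicate 1 and 2396 without shTRMT6 replicate 2, against 3746 with all libraries; of chaperone system genes, 20 and 22 were then higher.

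The replicate block raised the count of called genes to 4954 and of chaperone system genes called lower to 16; it changed no call of the 10 genes by itself. Chaperone system genes called lower numbered 4 with no filter on low values, 13 with median-of-ratios scaling and 15 with the GC correction and replicate block together, where 2 of the 10 genes were lower (DNAJB1 and HSPH1). With the GC correction the log2 ratio differences were -0.20 for HSPA1B over HSPA8, -0.20 for HSPA1A plus HSPA1B over HSPA8, 0.55 for HSPA4L over HSPA4 and -0.63 for DNAJB1 over HSPA8. The cause of these shifts was not tested. The 3 libraries a group and the unknown depth limit what small differences can show.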
